A study of Arabis alpina with 19 samples.

Results

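The young perennial stem internode of Arabis alpina was compared with a flowering-side internode of the same kind of lateral stem. III_PZ was the first internode of the perennial zone (PZ) at 7 weeks, and IV_AZ_if was an internode of the annual zone (AZ), taken at 30 weeks close to the inflorescence. Each group had 3 libraries, so 6 of the 19 libraries of the series form the comparison. Libraries were grouped by their labels, and the comparison was chosen with earlier results of these data known. The other groups, used here as a frame, were the same perennial internode at 4 weeks (I_PZ), 5 weeks (II_PZ) and 30 weeks (IV_PZ), with 3 libraries each, and a short annual internode at 30 weeks (IV_AZ_si), with 4. All plants carried the pep1-1 allele and grew in long days, all lateral stems came from the lowest 2 nodes of the main axis, and each replicate pooled 12 plants. No wild type was sampled, so every value belongs to the mutant. Zone and age differ together between III_PZ and IV_AZ_if and cannot be told apart within this comparison.

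PEP1 is the Arabis alpina orthologue of the Arabidopsis floral repressor FLC, and plants without it flower without a cold period. In perennial stems the vascular cambium, a layer of dividing cells, adds wood inwards and phloem outwards, and the surrounding parenchyma stores starch and lipids. Stem segments near an inflorescence carry flowers and fruits and later die back, while the perennial segment persists. Cytokinin, named in the aim of the study, is a hormone known to promote cambial cell division.

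Targets carry identifiers without gene names in the files used here, so the labelled tissue could not be checked against marker genes, and no pathway was read. Total estimated counts were 21522541 to 24780509 in III_PZ and 23394719 to 27999048 in IV_AZ_if. Targets with a count numbered 23939, 25012 and 25054 in III_PZ and 23837, 24770 and 24295 in IV_AZ_if; the groups overlapped (exact permutation test, two-sided p = 0.5). TPM (transcript abundance relative to effective length) weighs short targets heavily. The 6734 targets under 300 bases held 32.9% of the TPM in III_PZ and 25.9% in IV_AZ_if, but 1.35% and 1.14% of the counts. Distances, class shares, ranks of groups and the concentration of the difference are therefore given in counts as well; median levels are given in TPM alone. I_PZ replicate 3 and IV_AZ_si replicate 2 held some III_PZ transcripts that were absent or lower in the other libraries of their groups, and the distances, class shares and ranks that use their groups are given with and without both.

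The 2 internodes differed far more than replicates did. Between a III_PZ and an IV_AZ_if library, 32.3% to 34.8% of the TPM was assigned to different targets (mean 33.8%, 9 pairs). Between replicates this share was 6.66% to 8.90% in III_PZ and 7.21% to 9.47% in IV_AZ_if. In counts, the share was 29.4% to 30.8% across the groups, 4.17% to 5.26% within III_PZ and 4.90% to 7.48% within IV_AZ_if. Over targets of at least 300 bases, with TPM rescaled, it was 32.5% to 33.5% across the groups.

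III_PZ was nearest to IV_AZ_si and about as far from IV_AZ_if as from I_PZ. Its mean share to IV_AZ_if was 33.8% of the TPM, and to I_PZ it was 33.3% with all libraries and 34.0% without I_PZ replicate 3, which turns the order of these means. The pairs overlapped, from 31.4% to 34.7% for I_PZ. The mean was 29.9% to II_PZ, 29.4% to IV_PZ and 25.9% to IV_AZ_si (26.3% without IV_AZ_si replicate 2). In counts the means of III_PZ were 30.1% to IV_AZ_if, 30.0% to I_PZ (30.8% without replicate 3), 27.6% to II_PZ, 24.6% to IV_PZ and 21.9% to IV_AZ_si (22.4% without replicate 2). IV_AZ_if, in contrast, was nearest to II_PZ (20.4% of the TPM, 16.5% of counts) and farthest from IV_PZ (38.9% and 37.3%). Its pairs with II_PZ overlapped those with IV_AZ_si, at a mean of 22.0% of the TPM and 20.4% of counts, or 21.1% and 19.6% without IV_AZ_si replicate 2. III_PZ was thus farther from the perennial internode at 5 weeks than IV_AZ_if was: every III_PZ pair with II_PZ (27.8% to 31.5% of the TPM) was above every IV_AZ_if pair with II_PZ (18.7% to 22.4%). In counts these ranges were 25.7% to 28.7% for III_PZ and 14.2% to 19.3% for IV_AZ_if.

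**Figure D1:**
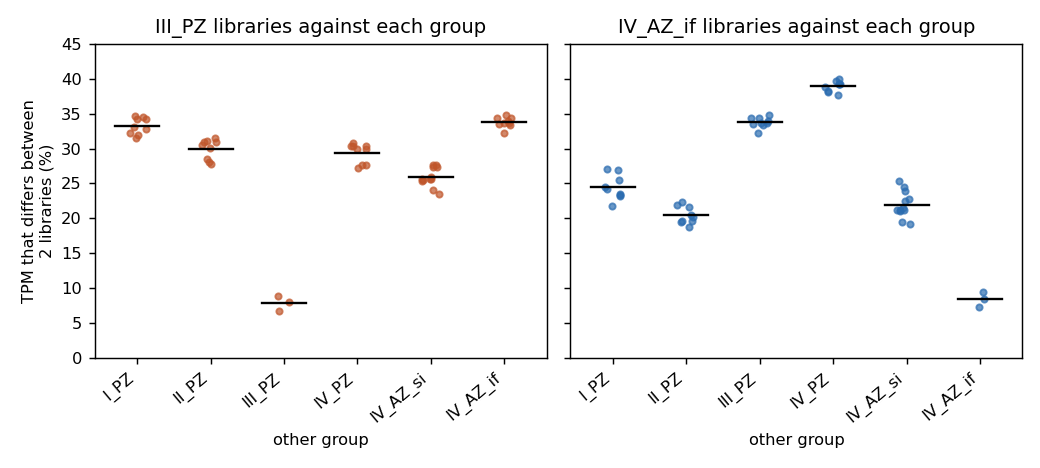
Share of TPM assigned to different targets for each pair of libraries (vertical axis, percent), with III_PZ libraries on the left and IV_AZ_if libraries on the right, against each group. Points are pairs and bars are means. III_PZ pairs with other groups lie between 23.4% and 34.8%, while IV_AZ_if runs from 18.7% against II_PZ to 39.9% against IV_PZ.

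Of 23528 targets tested, 13508 (57.4%) differed between III_PZ and IV_AZ_if at an adjusted p under 0.05 (edgeR quasi-likelihood test, Benjamini-Hochberg over all targets tested). In III_PZ 6497 targets (27.6%) were higher and 7011 (29.8%) were lower than in IV_AZ_if. Differences of at least 2-fold were called for 3021 higher targets (12.8%) and 3521 lower targets (15.0%). At least 8-fold differences were called for 993 higher and 1108 lower targets, and at least 32-fold for 492 and 496. The median size of a called difference was 0.91 on the log2 scale for higher and 1.01 for lower targets. For 14950 targets (63.5%), all III_PZ libraries lay on the same side of all IV_AZ_if libraries in TMM-scaled CPM (counts per 1000000).

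The even balance of directions belongs to the TMM scale, which assumes that most targets do not change. TMM factors were 1.09 to 1.12 in III_PZ and 0.892 to 0.913 in IV_AZ_if. With library size alone, 9767 targets were higher and 4900 lower, and the median log2 fold change of all tested targets was 0.28, against -0.01 with TMM. Size factors of the TPM scale gave 8705 higher and 5388 lower (median 0.19), and the same factors from targets of at least 300 bases gave 10453 and 4615 (median 0.33). With the factors from targets of at least 300 bases, 11138 of the 13508 targets were called again, 26 of them in the opposite direction.

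**Figure D2:**
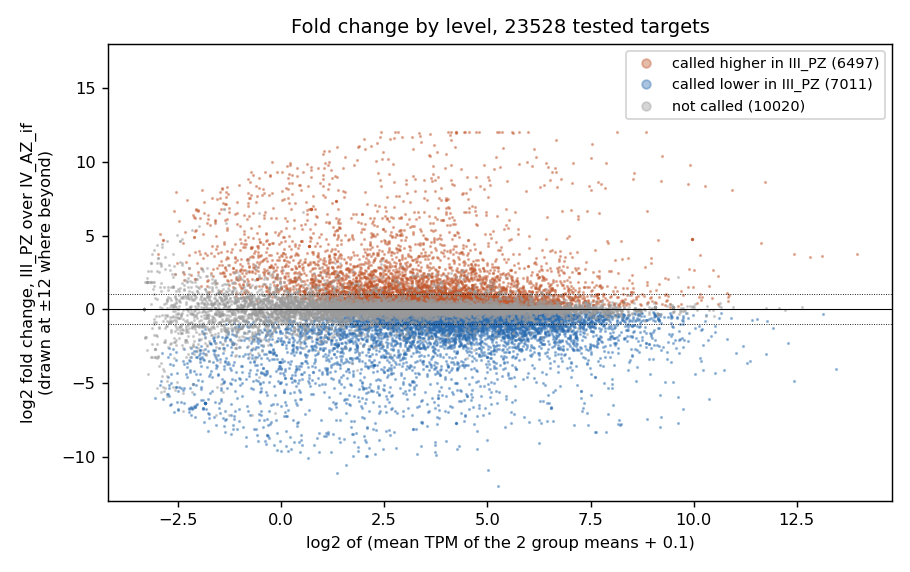
Log2 fold change of III_PZ over IV_AZ_if (vertical axis) against the log2 of the mean TPM of both groups plus 0.1 (horizontal axis), 1 point per tested target. Orange points are the 6497 called higher in III_PZ, blue points the 7011 called lower and grey points the 10020 not called; folds beyond 12 are drawn at 12, and dotted lines mark a 2-fold difference.

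At 100 to 1000 TPM, differences of at least 2-fold were more often falls than rises in III_PZ. Among the 1703 targets with 100 to 1000 TPM on average over all 19 libraries, 125 (7.34%) were called at least 2-fold higher and 399 (23.4%) at least 2-fold lower in III_PZ. Among the 7871 targets with 1 to 10 TPM the order was turned, with 1436 (18.2%) higher and 1117 (14.2%) lower. Level was averaged over all groups, so targets high in most groups but III_PZ sort above targets high in III_PZ alone. How far this shapes the pattern was not tested. The larger number of falls at 100 to 1000 TPM held with size factors of the TPM scale (162 higher, 338 lower) and with those from targets of at least 300 bases (190 and 305). At 10 to 100 TPM the order depended on the scale. There 967 were higher and 1505 lower with TMM, but 1298 and 1178 with the TPM scale and 1625 and 1019 with targets of at least 300 bases. At 1000 TPM or more these numbers were 12 and 23, 16 and 21, and 18 and 19. The share of targets called at any fold was 42.1% under 1 TPM and 74.7% among the 75 targets at 1000 TPM or more, where counts are highest.

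The largest fold difference upwards was that of Aa_G731640.h1, whose counts are partly shared with other targets. It had 571, 537 and 586 TPM in III_PZ and no whole count in any IV_AZ_if library. Each target named in this and the next paragraphs was picked among calls of at least 2-fold with no overlap of libraries. Separate groups and a small adjusted p thus follow from that choice. With 3 counts over the 3 IV_AZ_if libraries as the floor, the level in III_PZ was at least 12024-fold higher (adjusted p = 0.00131, edgeR). Elsewhere it was highest in IV_PZ, at 810 to 1187 TPM, and it had no whole count in II_PZ. In I_PZ it had 66.4 TPM in replicate 3 and under 0.001 TPM in the others, and in IV_AZ_si 81.2 TPM in replicate 2 and 1.00 to 5.70 TPM in the others. In this comparison its adjusted p was 9.76e-05 without I_PZ replicate 3 and 0.000324 without IV_AZ_si replicate 2, and it ran from 2.15e-27 to 0.00599 over all 20 alternatives.

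The largest TPM difference upwards was that of Aa_G1107360.h1, a target of 165 bases with an effective length of 8.65 bases. It had 33585, 21575 and 34172 TPM in III_PZ, against 2158, 1409 and 2243 TPM in IV_AZ_if. The log2 fold change was 3.75 with an SE of 0.37 (adjusted p = 1.39e-07, edgeR). In counts it was a minor target: 10905, 6949 and 12616 counts in III_PZ and 720, 560 and 740 in IV_AZ_if, or 0.0317% to 0.0509% and 0.002% to 0.00316% of the libraries. It was also high in II_PZ, at 24165 to 44936.5 TPM, lower in I_PZ and IV_PZ, and lowest in IV_AZ_si, at 334 to 1263 TPM.

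The largest fold difference downwards was that of Aa_G106830.h1. It had no count in any III_PZ library, against 81.8, 73.9 and 71.5 TPM in IV_AZ_if. With the same floor, III_PZ was at least 902-fold lower (adjusted p = 4.26e-09, edgeR). IV_PZ had no count either, IV_AZ_si had 0.0809 to 1.66 TPM, and the young perennial internodes had 25.1 to 29.0 TPM (I_PZ) and 12.65 to 21.2 TPM (II_PZ). It was thus found in the youngest stems and near the inflorescence, and not detected in the perennial internode at 7 and 30 weeks.

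Aa_G253980.h1 had the largest TPM difference downwards and was 1 of the 75 targets with at least 1000 TPM on average over all libraries. It had 1679, 1310 and 1361 TPM in III_PZ, against 18550.5, 23062 and 21121 TPM in IV_AZ_if. The log2 fold change was -4.05 with an SE of 0.18 (adjusted p = 1.48e-11, edgeR). As for the target before it, III_PZ and IV_PZ were the lowest groups: it had 10715 to 11934 TPM in I_PZ, 13406 to 14501 in II_PZ, 1678 to 2134 in IV_PZ and 6885 to 10354 in IV_AZ_si. In libraries outside the comparison it was lower in IV_PZ than in IV_AZ_si (log2 fold change -2.09 ± 0.16, SE; adjusted p = 5.91e-09, edgeR) and than in II_PZ (-3.01 ± 0.17; adjusted p = 4.8e-11, edgeR).

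**Figure D3:**
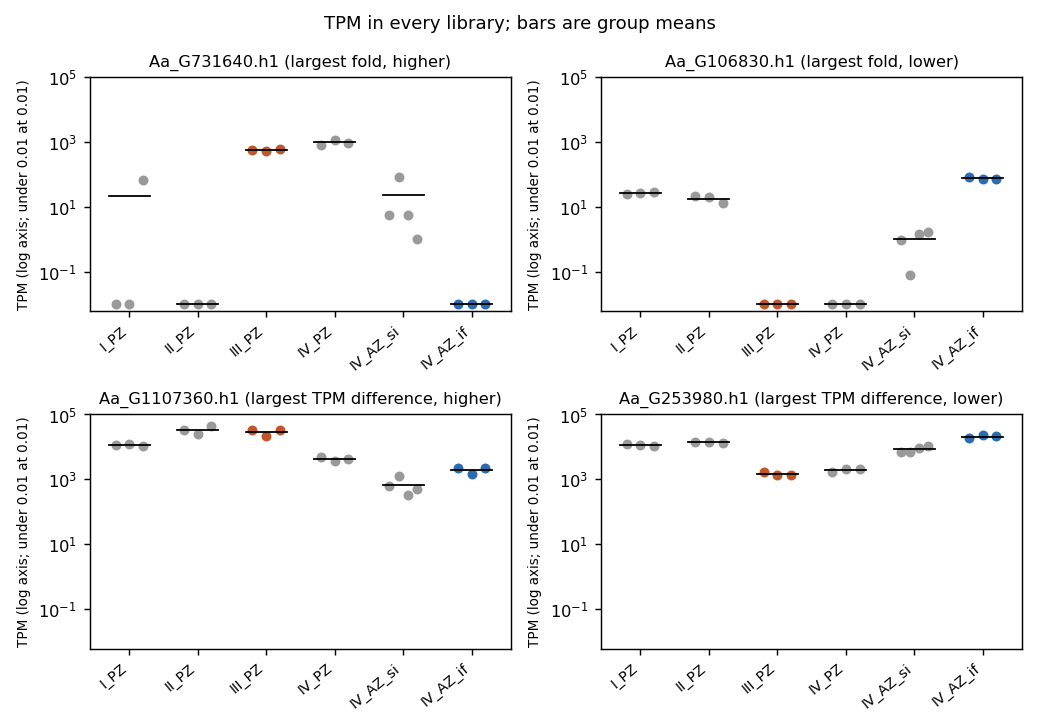
TPM of the 4 targets described above in every library (vertical log axis; values under 0.01 drawn at 0.01), by group, with III_PZ in orange and IV_AZ_if in blue; bars are group means. The pair that is higher in III_PZ stands on the left and the pair that is lower on the right, where III_PZ and IV_PZ lie together below the other groups.

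Some transcripts were found in 1 of the internodes and had no count in the other. There were 134 targets with at least 5 TPM in III_PZ and no count in IV_AZ_if, and 96 with at least 5 TPM in IV_AZ_if and no count in III_PZ. Many of these were short targets resting on few counts: 70 of the 134 and 50 of the 96 did not pass the filter on low counts, with a median of 7 and 6 counts over the 3 libraries. Absence from a group also depends on each of its libraries, with 265 targets in place of 134 without IV_AZ_if replicate 2 and 147 in place of 96 without III_PZ replicate 1.

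The 64 III_PZ targets that passed the filter had a median of 17.9 TPM and of 766 counts over the group. A target could pass the filter through III_PZ alone. Shares over all tested targets were not computed for the counts that follow, so no pattern is read from them. In IV_PZ 24 of them had at least 5 TPM, and in IV_AZ_si 3 did. In II_PZ 4 had at least 5 TPM and 21 had no count. In I_PZ 5 had at least 5 TPM, and 4 did without I_PZ replicate 3. No count in I_PZ was found for 3 with all 3 libraries and for 44 without I_PZ replicate 3. For most of them the I_PZ counts thus came from that library alone. For 37 of the 64, no other group reached 5 TPM.

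The 46 IV_AZ_if targets that passed had a median of 8.46 TPM and of 114 counts over the group. Here too, shares over all tested targets were not computed, and a target could pass the filter through the group where it was found. No pattern is read from these counts. In I_PZ 31 had at least 5 TPM, in II_PZ 31 did, and in IV_AZ_si 13 did. In IV_PZ 3 had at least 5 TPM and 35 had no count. For 7 of the 46, no other group reached 5 TPM.

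The targets at least 2-fold higher in III_PZ held 17.6% ± 0.40 of the counts in III_PZ and 3.20% ± 0.14 in IV_AZ_if (SD, n = 3 each), a difference that the choice of targets sets. The levels of the other groups were not compared for that choice, but their libraries entered the fit that set spread, count filter and scale. These targets held 11.8% ± 0.22 of the counts in IV_PZ (SD, n = 3), 6.42% ± 0.77 in IV_AZ_si (SD, n = 4), 6.28% ± 0.61 in II_PZ and 5.78% ± 0.59 in I_PZ (SD, n = 3 each). Without IV_AZ_si replicate 2 and I_PZ replicate 3, IV_AZ_si held 6.07% and I_PZ 5.44% of the counts. In TPM the shares were 24.0% ± 1.95 in III_PZ and 3.36% ± 0.06 in IV_AZ_if (SD, n = 3 each), and 14.2% ± 0.38 in IV_PZ and 10.1% ± 1.88 in II_PZ (SD, n = 3 each). Without Aa_G1107360.h1 alone, the TPM share was 21.1% in III_PZ and 6.69% in II_PZ. IV_PZ thus held the second largest share of these transcripts, above all libraries of I_PZ, II_PZ and IV_AZ_si in counts. I_PZ replicate 3 had the highest TPM share of its group (7.68% against 6.37% and 6.47%), and so had IV_AZ_si replicate 2 (8.41% against 6.08% to 6.94%).

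The targets at least 2-fold lower in III_PZ held 9.86% ± 0.05 of the counts in III_PZ and 34.9% ± 0.58 in IV_AZ_if (SD, n = 3 each). They held 28.45% ± 0.58 in II_PZ, 26.5% ± 0.59 in I_PZ, 21.7% ± 2.21 in IV_AZ_si (n = 4) and 8.74% ± 0.21 in IV_PZ (SD, n = 3 where not given). Without the same libraries, the shares were 26.8% in I_PZ and 22.6% in IV_AZ_si. IV_PZ lay slightly below III_PZ in counts and level with it in TPM, at 8.76% ± 0.38 and 8.61% ± 0.05. In bulk tissue, fewer cells of a type and less RNA per cell cannot be told apart.

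**Figure D4:**
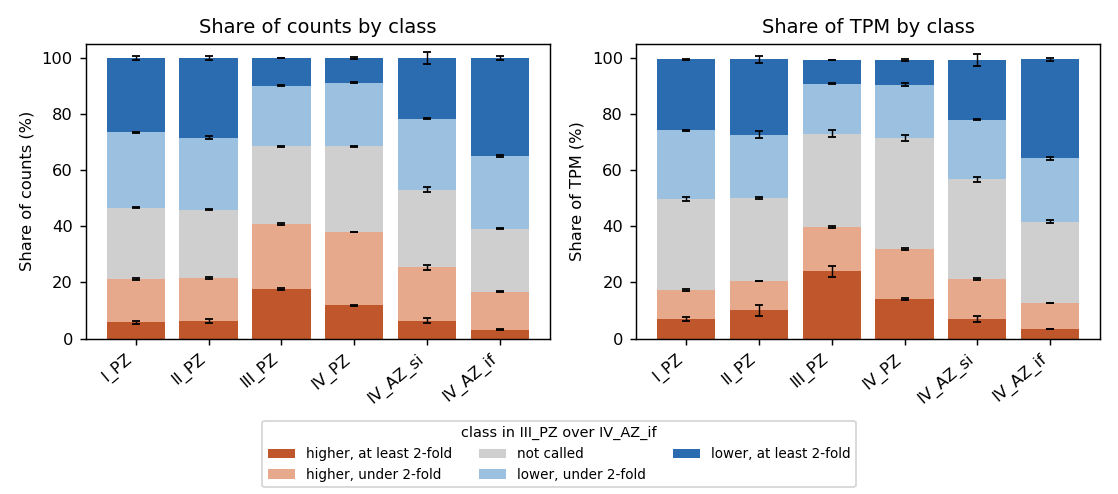
Mean share of counts (left) and of TPM (right) held by 5 classes of targets in each group, with error bars of 1 SD over 3 libraries (4 in IV_AZ_si). Classes are the calls of III_PZ over IV_AZ_if, so the heights in these groups follow from the choice; in the other groups, the dark blue class is small in IV_PZ, as in III_PZ, and large in I_PZ, II_PZ and IV_AZ_si.

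The other groups were also ranked target by target. Among the 3021 targets at least 2-fold higher in III_PZ, IV_PZ had the highest mean TPM of the other 4 groups for 52.1%, where the share over all tested targets was 35.6%. In shares of counts it was 53.7%, where all tested targets had 40.1%. Among the 3521 targets at least 2-fold lower in III_PZ, IV_PZ alone was the lowest of the other 4 groups for 72.8%, against 36.2% over all tested targets, and in counts for 71.0%, against 32.9%. Without I_PZ replicate 3 and IV_AZ_si replicate 2, IV_PZ was highest for 54.0% of the higher targets (35.9% of all tested) and lowest alone for 72.8% of the lower ones (35.5%), in TPM. For these lower targets the highest of the 4 was I_PZ in 38.7%, IV_AZ_si in 35.1% and II_PZ in 22.2%. Median levels of the lower targets were 4.49 TPM in III_PZ and 19.1 TPM in IV_AZ_if, with 12.8 TPM in I_PZ, 14.1 TPM in II_PZ, 2.80 TPM in IV_PZ and 9.89 TPM in IV_AZ_si.

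The same targets were then followed in contrasts between groups other than III_PZ and IV_AZ_if. The spread per target, the count filter and the scale still came from the same fit of all 19 libraries. The first contrast sets the perennial zone against the annual zone at 1 age, 30 weeks, and 57.1% of all tested targets were called in it. Of the targets at least 2-fold lower in III_PZ, 2502 (71.1%) were also lower in IV_PZ than in IV_AZ_si, where 31.4% of all tested targets were called lower, and 139 (3.95%) were higher, against 25.7% of all tested. These 2502 make up 33.8% of all targets lower in IV_PZ. Of the targets at least 2-fold higher in III_PZ, 1353 (44.8%) were higher in IV_PZ than in IV_AZ_si and 608 (20.1%) were lower. These 1353 make up 22.4% of all targets higher in IV_PZ. The median log2 fold change of IV_PZ over IV_AZ_si was -1.34 for the lower targets, 0.495 for the higher ones and -0.04 for all tested. Without IV_AZ_si replicate 2 the shares were 71.4% and 45.4%, against 31.0% and 25.1% of all tested. Calls in different contrasts use the same spread per target, so a target called in 1 contrast is more readily called in another. In IV_PZ over IV_AZ_si, 25.0% of the lower and 35.1% of the higher targets were not called. The share was 57.7% for targets not called in III_PZ over IV_AZ_if and 42.9% for all tested. The share of all tested is thus not a matched background for these classes.

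In IV_PZ against II_PZ, 30 against 5 weeks of the same internode, 71.5% of all tested targets were called, 37.7% lower and 33.8% higher. Of the targets at least 2-fold lower in III_PZ, 2702 (76.7%) were lower and 263 (7.47%) higher in IV_PZ than in II_PZ, with a median log2 fold change of -2.03. Of those at least 2-fold higher in III_PZ, 1447 (47.9%) were higher and 768 (25.4%) lower in IV_PZ than in II_PZ.

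In IV_AZ_si against II_PZ, where zone and age both differ, 59.4% of all tested targets were called. Of the targets at least 2-fold higher in III_PZ, 916 (30.3%) were higher and 839 (27.8%) lower in IV_AZ_si than in II_PZ, near the 29.2% and 30.2% of all tested targets. Without IV_AZ_si replicate 2, 27.5% were higher, against 28.0% of all tested. Of the targets at least 2-fold lower in III_PZ, 1732 (49.2%) were lower and 776 (22.0%) higher in IV_AZ_si than in II_PZ. All tested targets, which are not a matched background, had 30.2% lower and 29.2% higher. The median log2 fold change of these lower targets was -0.46. Differences between these 3 contrasts were not tested.

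**Figure D5:**
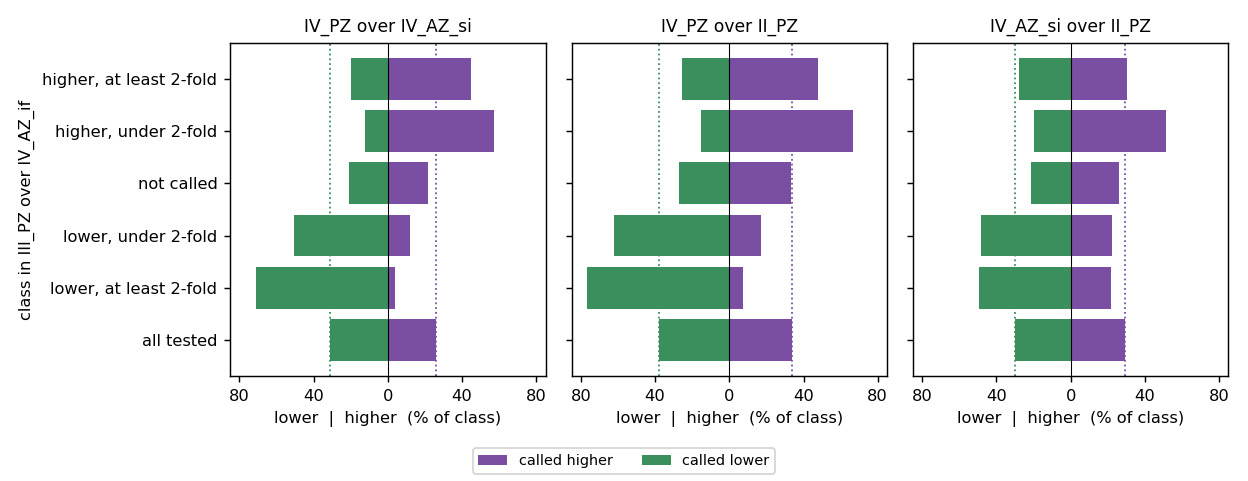
Percent of each class of targets (rows, by their call in III_PZ over IV_AZ_if) that was called higher (right, purple) or lower (left, green) in 3 contrasts of other libraries; dotted lines mark the shares of all tested targets. The class at least 2-fold lower in III_PZ reaches 71.1% and 76.7% lower in the contrasts with IV_PZ on top and 49.2% in IV_AZ_si over II_PZ. The contrasts share libraries, so these shares are not independent.

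The classes also differed in the length of their targets. Median coding length was 1059 bases for targets at least 2-fold higher in III_PZ, 1390.5 for those higher by less, 996 for those at least 2-fold lower, 1146 for those lower by less and 888 for those not called. Averaged over the pool with TPM as weight, effective length was 573, 588 and 581 bases in III_PZ and 625, 609 and 613 bases in IV_AZ_if. The groups did not overlap, but with 3 libraries against 3 the exact permutation test cannot go below its two-sided p of 0.1. Short targets lower this average, and those under 300 bases held 32.9% of the TPM in III_PZ and 25.9% in IV_AZ_if. Aa_G1107360.h1, with an effective length of 8.65 bases, is 1 of them. How much of the gap rests on that target was not computed. Targets with shared reads made up 21.7% of the higher and 21.8% of the lower 2-fold class, against 23.8% of all tested.

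The difference between the pools was spread over many targets. Of the summed TPM difference between group means, the 20 largest targets held 23.1%, and 271 targets held 50%. In counts the 20 largest held 10.4%, and 622 targets held 50%. Of the 20 targets largest in TPM, 8 were higher and 12 lower in III_PZ, all 20 were called at least 2-fold, and 12 were under 300 bases long. They were ranked by the difference in the same libraries, which favours such calls. Of all tested targets, 12.8% were called at least 2-fold higher and 15.0% at least 2-fold lower. The number of targets that together hold 50% of the TPM was 884, 988 and 891 in III_PZ and 827, 841 and 874 in IV_AZ_if (exact permutation test, two-sided p = 0.1, the smallest possible). Replicates varied slightly less in III_PZ, with a median SD of log2 CPM of 0.15 per target, against 0.19 in IV_AZ_if.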

How the data were processed

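Stranded mRNA libraries (Illumina TruSeq) were made from total RNA of whole internodes, per the labels' protocols. The submitters' processing notes name bcl2fastq and kallisto; the sources used here give no versions, transcript reference or build. Each deposited file, per the file headers, gives estimated counts and TPM for 34220 targets, with lengths that are coding lengths (99.49% multiples of 3). Rounded estimated counts entered the quasi-likelihood test in edgeR 4.0.16 (R 4.3.3), with TMM scaling, the default filter on low counts and all 19 libraries in 1 fit by group; 23528 targets passed. A call is an adjusted p under 0.05. Standard errors came from the test statistic. Depth was 21032841 to 27999048 counts per library, and floors of 3 counts cover counting error only. The labels call the samples biological replicates. A target is said to share reads where its estimated count was not whole, by more than 0.001, in at least 1 library.

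Targets named were, in each direction, that of the largest fold and that of the largest TPM difference among calls of at least 2-fold with at least 5 TPM and no overlap of libraries. Comparisons, classes and alternatives were chosen with earlier results of these data known. Added after seeing the values here were library size alone, targets of at least 300 bases, shares of counts, targets that passed the count filter, rounded counts for absence, each library left out for the numbers of targets detected and of targets that hold 50% of the TPM, fits without IV_AZ_si replicate 2, and distances, ranks, class shares and presence without I_PZ replicate 3 and IV_AZ_si replicate 2 or in counts. Gene lists could not be matched to the identifiers and were not tested. Alternatives used RLE factors, DESeq2 1.42.0 and limma 3.58.1 on log2(TPM + 1) or log2(TPM + 0.1).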

Additional observations from a re-analysis of the deposited data

Results flagged for a closer look

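In IV_AZ_si, the group of 4 libraries outside the comparison, Aa_G731640.h1 stood at 81.2 TPM in replicate 2, while the other 3 libraries had 5.70, 5.57 and 1.00 TPM. The gap of replicate 2 to its nearest neighbour was 0.941 of the range, above Dixon's critical value for 4 samples. Of 8 values checked in this way, 1 passed the limit, and chance flags about 1 group in 20.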

How the results depend on the processing

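The 4 named targets kept direction and call under every alternative in which they were tested (21 each, 20 for Aa_G731640.h1, which shares reads). The number of calls ran from 10609 to 14603 in the alternatives other than those with factors from targets of at least 300 bases or library size alone, and the replicate block gave 13199. Replicate numbers did not pair the libraries: deviations from the group means correlated by -0.07, -0.02 and -0.04 for replicates 1, 2 and 3, and no library correlated best with its own number. The block changed no call of a named target. With size factors from targets of at least 300 bases, 15068 targets were called, 10453 higher and 4615 lower, and with library size alone 9767 were higher. In the contrasts of other libraries the classes were rebuilt under each alternative. With the 300-base factors, 2118 of the targets at least 2-fold higher in III_PZ were higher in IV_PZ than in IV_AZ_si (47.3%, against 28.9% of all tested). Higher in IV_PZ than in II_PZ were 2496 with these factors (55.7%, against 42.0%) and 2273 with library size alone (54.5%, against 41.1%). Higher in IV_AZ_si than in II_PZ were 1758 (39.3%, against 37.9%), 1544 with library size alone (37.0%, against 35.0%) and 1425 with the TPM scale (37.7%, against 38.0%). Of the targets at least 2-fold lower in III_PZ, 1133 were lower in IV_AZ_si than in II_PZ in limma-trend on log2(TPM + 1) (46.3%, against 23.2%), and 1118 without its filter (45.5%, against 19.4%). Without 1 library in turn, targets called higher held 38.1% to 41.8% of the TPM in III_PZ and 11.7% to 13.7% in IV_AZ_if (39.7% and 12.7% with all), and targets called lower held 22.0% to 25.2% and 53.1% to 57.0% (26.3% and 57.8%); the cause was not tested. Targets found in III_PZ with no count in IV_AZ_if numbered 122 to 265 without 1 library, 80 at 10 TPM, 360 at 1 TPM and 64 past the count filter; the reverse numbered 88 to 147, 30, 277 and 46. The TPM that differed was 33.0% over targets of at least 300 bases, 30.1% in counts and 31.3% without the 20 most abundant targets. A floor of 3 counts over a group limits every bound on absence.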
